A study of Mus musculus with 6 samples.

Results

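Fucosyltransferases attach fucose to glycans or directly to proteins. The group described here held 10 mouse genes, namely Fut1, Fut2, Fut4, Fut7, Fut8, Fut9, Fut10, Fut11, Pofut1 and Pofut2, out of 909 genes that could be named on the array. They were chosen as the listed fucosyltransferase and protein O-fucosyltransferase genes with a probe set, and each was found through the RefSeq accession that its probe set carries. All 10 had at least 1 probe set, with 14 in all, and the probe set with the highest mean over the arrays stood for its gene. The samples were RNA of MLE-15 cells, a transformed line of mouse distal lung epithelium in which the surfactant protein C promoter drives SV40 large T antigen. The tested arrays came from 3 samples of MLE-15 cells given PMA (phorbol 12-myristate 13-acetate, an activator of protein kinase C) at 10 nM for 24 h, and the other 3 arrays came from untreated control samples of that line. Dose and time are those of the series' design text. The series asked about sialyltransferases, sulfotransferases and mucins, whether airway cells express them and whether PMA raises them, and the same arrays carried the fucosyltransferases. The samples of each group are numbered 1, 2 and 3, and the labels do not say whether a number marks a separate culture, so p-values measure the spread between these arrays, which may be technical.

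Fucose is carried to these enzymes as GDP-fucose. Fut8 adds it to the innermost N-acetylglucosamine of N-glycans, the core fucose. Fut1 and Fut2 add it to terminal galactose and so make the H antigen, with Fut2 the enzyme known from mucus-secreting epithelia. Fut4, Fut7 and Fut9 add it to N-acetylglucosamine of outer chains to make Lewis x or sialyl Lewis x, and sialyl Lewis x is a ligand of selectins. Pofut1 fucosylates EGF repeats such as those of Notch receptors, and Pofut2 fucosylates thrombospondin type 1 repeats, both in the endoplasmic reticulum. Fut10 and Fut11 were long listed with the outer-chain enzymes, and their human counterparts have been described as O-fucosyltransferases of EMI domains.

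Values are RMA expression values on the log2 scale, so a difference of 1 is a doubling of the measured signal. Array medians ran from 5.64 to 5.71. The table gave no background probe sets, so no gene could be called present or absent, and levels of different probe sets are not compared. The 2 arrays numbered 1 stood apart from the other 4. In a limma fit with PMA as a term, 41.7% of the 1246 probe sets differed between number 1 and numbers 2 and 3 at an adjusted p under 0.05, against 0% between numbers 3 and 2. Lung identity could hardly be checked, since of 13 listed lung epithelial markers only the surfactant protein genes Sftpa1 and Sftpd were measured. Sftpa1 lay below the lower quartile of every array. It averaged 3.86 in number 1 and 3.34 in numbers 2 and 3 (0.52, adjusted p = 1.17e-04 by limma). Sftpd did not pass (0.13, adjusted p = 0.212 by limma). Among markers of other cells, 2 of 10 leukocyte genes and 4 of 9 endothelial and fibroblast genes were lower in number 1 (background 14.1%). In the same order 0 and 2 were higher (background 27.5%). The summed linear levels of these marker lists were 337 to 376 and 1418 to 1647 in number 1, against 807 to 835 and 1916 to 3123 in numbers 2 and 3. Between PMA and control arrays the ranges overlapped. Their part in the differences below was not tested, and in bulk RNA fewer cells of a type and less RNA per cell cannot be told apart.

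No PMA difference was detected for any of the 10 fucosyltransferases. In limma, with Benjamini-Hochberg adjustment over all probe sets, 0 of 10 passed, against a background of 0% called. Before adjustment 0 of 10 had a p below 0.05, against 4 of all 1246 probe sets. With the replicate number as a block 0 of 10 again passed, against a background of 0%. The adjusted p of every gene was 0.999 without the block. The mean difference was above 0 for 5 genes and below 0 for 5, and the PMA and control arrays overlapped for every one of the 10, while 3.37% of all probe sets had arrays that did not overlap. The median difference was 0.0064 log2 units over the 10 genes and 0.0033 over all 1246 probe sets. With the block, the 95% interval of all 10 PMA differences stayed within 0.58 log2 units of 0, whereas without it 6 of them did. Of all 1246 probe sets, 1242 did so with the block and 953 without it.

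**Figure D1:**
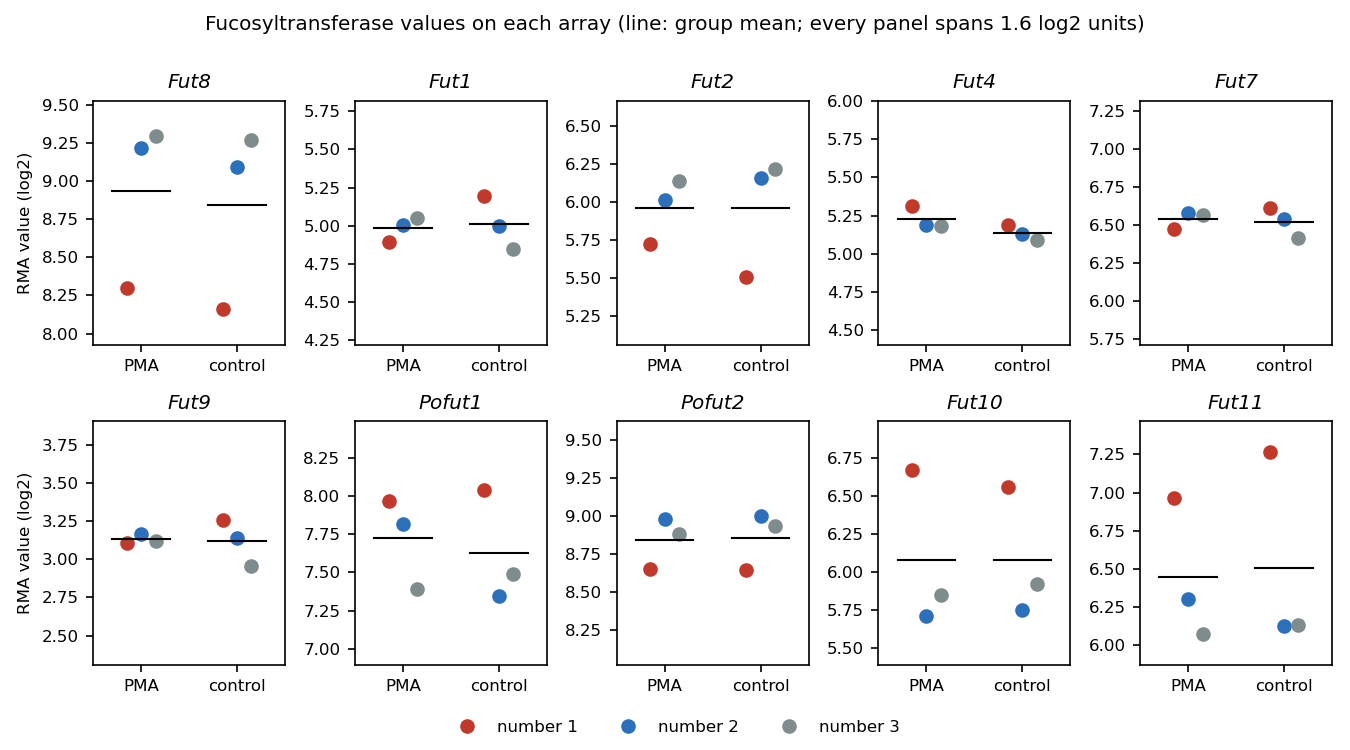
Each panel plots the RMA value (log2) of 1 fucosyltransferase on the 3 PMA and 3 control arrays, coloured by replicate number, with a line at each group mean. The PMA and control points overlap in every panel, while the number 1 points lie below the others for Fut8, Fut2 and Pofut2 and above them for Pofut1, Fut10 and Fut11.

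Fut8, the only known core fucosyltransferase of N-glycans, had values of 8.30, 9.22 and 9.30 in PMA arrays 1, 2 and 3, against 8.16, 9.09 and 9.27 in control arrays 1, 2 and 3. In both groups the number 1 array was the low one, and the groups overlapped. The PMA mean was 8.94 ± 0.56 and the control mean 8.84 ± 0.60 (SD, n = 3 each). The differences within numbers 1, 2 and 3 were 0.14, 0.13 and 0.024 log2 units, with a mean of 0.097 and a 95% interval of -0.052 to 0.25 in the blocked fit. Without the block that interval ran from -0.92 to 1.11. Fut8 and Fut4 were the genes for which all 3 numbers gave a difference of 1 sign, 2 of 10, while 23.1% of all probe sets did so.

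Against the other numbers, Fut8 averaged 8.23 in number 1 and 9.22 in numbers 2 and 3, and so differed by -0.99 log2 units (SE 0.075, adjusted p = 1.67e-06 by limma). The signal was thus 1.99-fold lower in number 1. The difference was -0.96 within the PMA arrays and -1.02 within the control arrays. Its absolute size exceeded that of 90.6% of all probe sets in the same comparison.

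Of the α1,2-fucosyltransferases, which make the same H structure, Fut2 differed between the numbers and Fut1 did not pass. Fut2 stood at 5.73, 6.01 and 6.14 in PMA arrays 1, 2 and 3, against 5.51, 6.16 and 6.22 in control arrays 1, 2 and 3. The number 1 arrays were again the lowest of each group. The PMA differences within the numbers were 0.21, -0.14 and -0.076, with a mean of -0.0015 (95% interval -0.19 to 0.19 with the block). Between numbers, Fut2 averaged 5.62 in number 1 and 6.13 in numbers 2 and 3, a difference of -0.51 (SE 0.087, adjusted p = 6.67e-04 by limma). The second Fut2 probe set, without the suffix s that marks binding to several transcripts, gave -0.70 (adjusted p = 2.34e-05). Fut1 stood at 4.89, 5.005 and 5.05 in PMA arrays and at 5.19, 4.99 and 4.85 in control arrays. All 6 Fut1 values lay within 0.35 log2 units, and number 1 held the lowest PMA and the highest control value. Its difference between number 1 and the other numbers was 0.068 (SE 0.096, adjusted p = 0.606, 95% interval -0.15 to 0.28).

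The 3 enzymes that add fucose in α1,3 linkage varied least. Fut7, which completes sialyl Lewis x on selectin ligands of leukocytes, had values of 6.47, 6.58 and 6.56 in PMA arrays 1, 2 and 3, against 6.61, 6.54 and 6.42 in control arrays. The groups overlapped, and no array stood apart. Its PMA mean was 6.54 ± 0.057 and its control mean 6.52 ± 0.099 (SD, n = 3 each), a difference of 0.015 (95% interval -0.16 to 0.19 with the block). Fut4, a Lewis x enzyme of myeloid cells, stood at 5.31, 5.19 and 5.18 with PMA and at 5.19, 5.13 and 5.09 without. Each PMA value was above the control value of its number, by 0.12, 0.060 and 0.091, but the lowest PMA value, 5.18, lay below the highest control value, 5.19, and the mean difference of 0.092 did not pass (95% interval -0.054 to 0.24 with the block). The other 2 Fut4 probe sets gave PMA differences of the opposite sign, -0.033 and -0.031. They read 2.88 to 3.11 (no suffix) and 3.89 to 4.05 (suffix x), below the lower quartile of every array. The values of 5.09 to 5.31 are from the probe set with the suffix s. Fut9, the Lewis x enzyme of brain and kidney, had a probe set below the lower quartile of every array, at 3.11, 3.17 and 3.12 in PMA arrays and 3.26, 3.14 and 2.96 in control arrays. Differences between number 1 and the other numbers were 0.10 for Fut4, 0.019 for Fut7 and 0.088 for Fut9, with adjusted p-values of 0.236, 0.866 and 0.439 by limma. The 95% intervals of these 3 probe sets reached at most 0.28. The other 2 Fut4 probe sets gave 0.17 (95% interval 0.027 to 0.32, adjusted p = 0.0580 by limma) and -0.039 (adjusted p = 0.699 by limma).

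Of the enzymes that fucosylate proteins directly, Pofut1 had values of 7.97, 7.82 and 7.39 in PMA arrays 1, 2 and 3, against 8.04, 7.34 and 7.49 in control arrays. Number 2 held the largest PMA difference of any of the 10 genes in any number, 0.48, while numbers 1 and 3 gave -0.075 and -0.10. The mean PMA difference was 0.10 (95% interval -0.15 to 0.35 with the block). From numbers 1 and 3 alone it was -0.088. Between numbers, Pofut1 averaged 8.005 in number 1 and 7.51 in numbers 2 and 3, a difference of 0.49 (SE 0.12, adjusted p = 0.00566 by limma). Of the other arrays PMA array 2, at 7.82, came nearest to the number 1 arrays, the lower of which stood at 7.97.

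Pofut2 was lower in number 1. It stood at 8.65, 8.98 and 8.88 in PMA arrays 1, 2 and 3, against 8.64, 8.999 and 8.93 in control arrays, so number 1 was the lowest array of each group. The PMA differences were 0.010, -0.018 and -0.051, the narrowest spread among the 10 genes with Fut4. Pofut2 averaged 8.65 in number 1 and 8.95 in numbers 2 and 3, a difference of -0.30 (SE 0.069, adjusted p = 0.00491 by limma). With control array 1 left out, the number 1 calls of Pofut1 (0.36, adjusted p = 0.151) and Pofut2 (-0.28, adjusted p = 0.0634) were lost.

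Fut10 and Fut11 were both higher in number 1. Fut10 had values of 6.67, 5.71 and 5.85 in PMA arrays 1, 2 and 3, against 6.56, 5.75 and 5.92 in control arrays. It averaged 6.61 in number 1 and 5.81 in numbers 2 and 3, a difference of 0.80 log2 units or 1.75-fold (SE 0.082, adjusted p = 1.60e-05 by limma). The second Fut10 probe set, which lacks the suffix s, gave 0.66. Fut11 had values of 6.96, 6.30 and 6.07 in PMA arrays, against 7.27, 6.12 and 6.13 in control arrays. It averaged 7.11 in number 1 and 6.16 in numbers 2 and 3, higher by 0.96 or 1.94-fold (SE 0.098, adjusted p = 1.64e-05 by limma). With PMA, Fut10 differed by -0.0024 and Fut11 by -0.059, and the blocked 95% intervals were -0.16 to 0.15 and -0.27 to 0.15. The PMA differences of Fut11 within numbers 1, 2 and 3 were -0.30, 0.18 and -0.057, so they had no common sign.

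**Figure D2:**
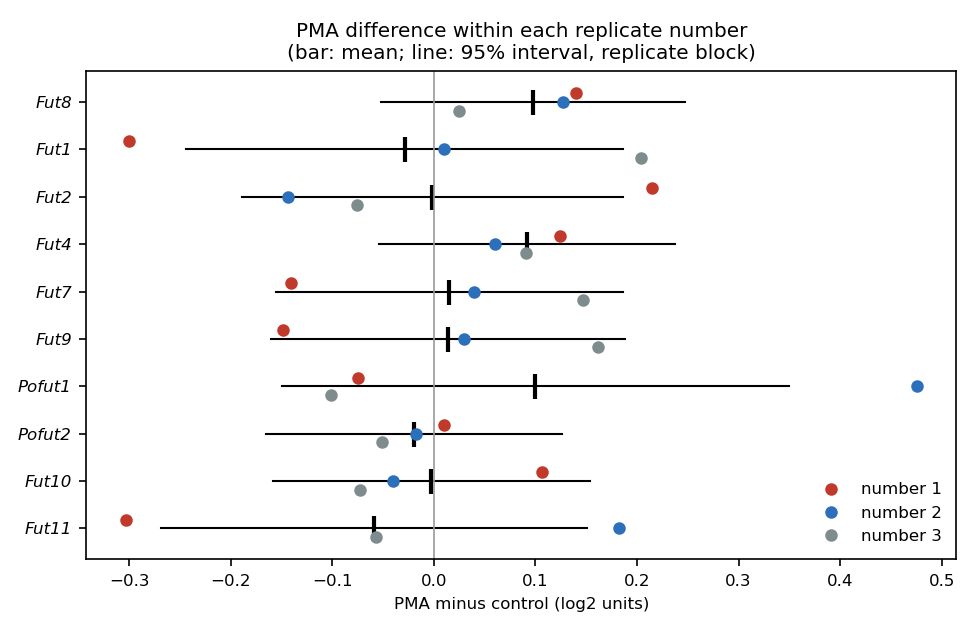
PMA minus control (log2 units, horizontal axis) for each fucosyltransferase, with 1 point per replicate number, a bar at the mean and a line for the 95% interval of the fit with the replicate block. Every interval crosses 0, and the point farthest out is Pofut1 in number 2, at 0.48.

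Over the family, 6 of 10 genes differed between number 1 and the other numbers, against a background of 41.7% of probe sets. Higher in number 1 were 3, Pofut1, Fut10 and Fut11 (background 27.5%), and lower were 3, Fut2, Fut8 and Pofut2 (background 14.1%). In these 6 genes both number 1 arrays lay outside the range of the other 4 arrays, as did those of 55.9% of all probe sets. The counts of members thus lay near the background and do not set fucosyltransferases apart. The median difference was 0.078 over the 10 genes and 0.079 over all probe sets. Between numbers 3 and 2, 0 of 10 genes passed in limma (background 0%), and their differences ran from -0.14 for Pofut1 to 0.16 for Fut10. Before adjustment 0 of the 10 lay below 0.05, against 61 of all 1246 probe sets. The 6 genes that passed lay on both sides of 0. Since both number 1 arrays lay outside the range of the other 4, the PMA and control arrays of number 1 had to give the same sign for each.

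**Figure D3:**
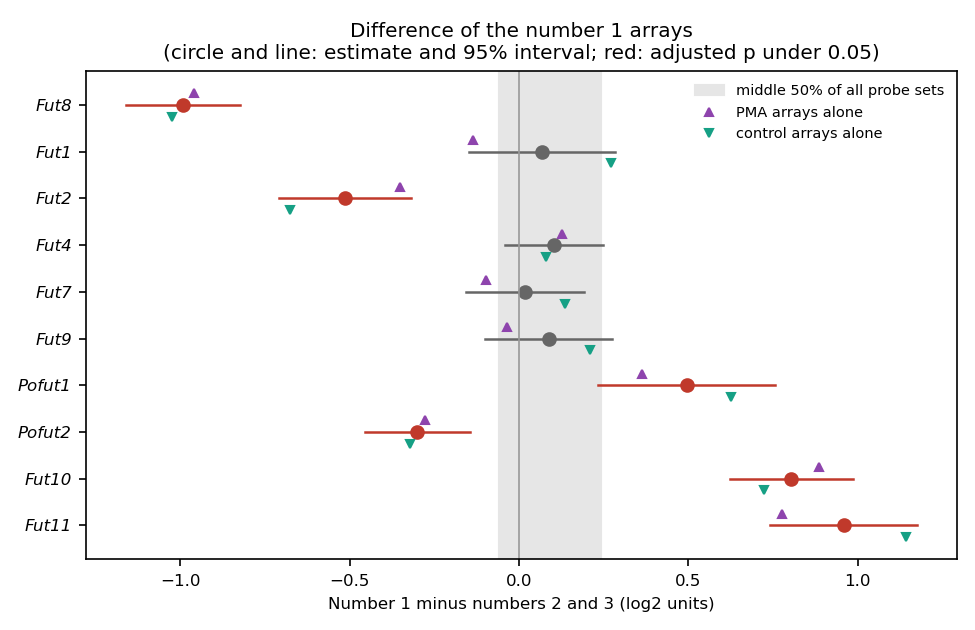
Number 1 minus numbers 2 and 3 (log2 units, horizontal axis) for each fucosyltransferase, as estimate and 95% interval, with triangles for the PMA arrays and the control arrays taken alone and a grey band over the middle 50% of all probe sets. Fut8 lies lowest at -0.99 and Fut11 highest at 0.96, and Fut1, Fut4, Fut7 and Fut9 have intervals that include 0.

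Whether the PMA difference itself depended on the number was tested with an interaction term. By limma 0 of 10 genes passed, against a background of 0.0803% of probe sets. Fut1 had the largest term, -0.41 log2 units, with a PMA difference of -0.30 in number 1 against 0.010 and 0.20 in numbers 2 and 3 (limma, unadjusted p = 0.0228, adjusted p = 0.708). It was the 1 gene of the 10 with an unadjusted p under 0.05, while 70 of all 1246 probe sets had one.

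Promoter sequence from RefSeq (build GRCm38.p6) was available for 7 of the 10 genes, with 11 annotated starts, and is shown for the 4 genes that differed with number 1 and had an entry, in order to set side by side the promoters of genes that moved in opposite directions. Each line gives the 250 bases before the first listed start, 5′ to 3′, all on the + strand. Capitals mark matches, on either strand, to the GC box GGGCGG or the CCAAT box CCAAT. Fut8 (chr12:77238489-77238738) and Pofut2 (chr10:77259050-77259299) were lower in number 1, and Fut11 (chr14:20694718-20694967) and Pofut1 (chr2:153241282-153241531) were higher.
Fut8: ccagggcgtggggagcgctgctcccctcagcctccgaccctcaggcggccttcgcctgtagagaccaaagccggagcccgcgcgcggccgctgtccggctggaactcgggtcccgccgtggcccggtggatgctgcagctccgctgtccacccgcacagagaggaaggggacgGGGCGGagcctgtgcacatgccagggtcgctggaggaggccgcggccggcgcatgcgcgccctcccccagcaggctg
Pofut2: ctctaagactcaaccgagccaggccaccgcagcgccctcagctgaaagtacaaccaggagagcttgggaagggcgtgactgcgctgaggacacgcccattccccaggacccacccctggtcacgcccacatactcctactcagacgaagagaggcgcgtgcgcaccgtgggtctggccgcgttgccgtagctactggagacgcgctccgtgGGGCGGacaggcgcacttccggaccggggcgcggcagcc
Fut11: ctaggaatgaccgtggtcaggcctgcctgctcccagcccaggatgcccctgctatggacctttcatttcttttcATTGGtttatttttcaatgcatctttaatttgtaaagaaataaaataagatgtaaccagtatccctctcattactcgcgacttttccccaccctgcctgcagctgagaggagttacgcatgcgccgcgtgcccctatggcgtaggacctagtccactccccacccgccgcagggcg
Pofut1: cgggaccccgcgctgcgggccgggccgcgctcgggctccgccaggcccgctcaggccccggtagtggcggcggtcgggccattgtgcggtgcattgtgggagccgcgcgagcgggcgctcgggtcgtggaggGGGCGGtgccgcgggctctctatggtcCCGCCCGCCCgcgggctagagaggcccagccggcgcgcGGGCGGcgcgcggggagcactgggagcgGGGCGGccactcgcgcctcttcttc

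Also searched on both strands were TGANTCA, the phorbol ester response element bound by AP-1, TGACGTCA, the cyclic AMP response element, and TATAAA, the TATA box. None of these 3 was found in the 250 bases before any of the 11 starts. Among 32851 RefSeq starts, TGANTCA occurred in 6.75% of such windows, TGACGTCA in 1.55% and TATAAA in 12.4%. The GC box occurred in 32.7% and the CCAAT box in 33.8%. Pofut1 held 5 GC boxes, 2 of them overlapping, and had a GC content of 80.4%, against a median of 52.4% over all windows. Fut8 and Pofut2 held 1 GC box each, with a GC content of 74.8% and 67.2%, and Fut11 held 1 CCAAT box at a GC content of 52%. Fut8 has 4 listed starts, and the second held 2 CCAAT boxes and no GC box. A match is a string of letters only, and a window without one says nothing about the factor.

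No PMA difference was detected among genes that supply the sugar either. Of 5 measured genes for GDP-fucose supply and fucose removal, 0 passed by limma, with 2 above and 3 below 0 in mean difference. Gfus, the enzyme that completes GDP-fucose from GDP-mannose, had the largest difference, with a PMA mean of 9.69 and a control mean of 9.78 (-0.097, SE 0.13), followed by the Golgi GDP-fucose transporter Slc35c1 at -0.056. Between numbers, 3 of the 5 differed (background 41.7%). Gmds, which starts GDP-fucose synthesis from GDP-mannose, averaged 8.04 in number 1 and 8.59 in numbers 2 and 3 (-0.55, SE 0.084, adjusted p = 3.24e-04 by limma). Fpgt, which acts in the salvage of free fucose, was higher in number 1 by 0.36 and Gfus by 0.30. When the arrays were quantile normalized again the Gfus difference was 0.15 and did not pass (adjusted p = 0.126), nor did it without PMA array 1 (0.25, adjusted p = 0.0759).

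Acceptors of O-fucose and the enzymes that extend it were measured for 14 of 17 listed genes. With PMA 0 of 14 passed by limma, and the largest differences were 0.14 (SE 0.16) for Notch4 and 0.097 (SE 0.11) for Hes1, a transcriptional target of Notch. In number 1, 7 of 14 were higher (background 27.5%) and 1 was lower (background 14.1%), with a median difference of 0.17. The receptors Notch2 and Notch1, whose EGF repeats are substrates of Pofut1, averaged 8.99 and 8.66 in number 1, against 7.32 and 7.33 in numbers 2 and 3, differences of 1.67 (SE 0.099) and 1.33 (SE 0.10). Jag1, a Notch ligand with EGF repeats of its own, averaged 8.49 in number 1 and 10.57 in numbers 2 and 3, a difference of -2.08 (SE 0.095, adjusted p = 3.31e-08 by limma). Rfng, a Fringe enzyme that lengthens O-fucose, was higher by 0.76, Notch3 by 0.65, the ligand Jag2 by 0.58 and Dll3 by 0.42. Notch4 was higher by 0.29 (adjusted p = 0.0337), a call lost under both rescalings and without any 1 of PMA arrays 1, 2 and 3 or control array 2, with a difference of 0.074 without PMA array 1. The other Fringe enzymes, Lfng and Mfng, differed by -0.20 and -0.057 and did not pass.

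The enzymes listed beside the fucosyltransferases for the assembly of Lewis structures, not all of them particular to such chains, were all measured, 20 of 20. With PMA 0 of 20 passed by limma, led by B3gnt3 at -0.17 (SE 0.58) and B3galt4 at -0.15 (SE 0.10). The PMA and control arrays did not overlap for 2 of 20, B3galt1 (higher with PMA) and B3galt4 (lower), against 3.37% of all probe sets. In number 1, 6 of 20 were higher (background 27.5%) and 7 lower (background 14.1%). B3galt5, the galactosyltransferase of type 1 chains, averaged 5.03 in number 1 and 7.19 in numbers 2 and 3, a difference of -2.17 (SE 0.077, adjusted p = 5.12e-09 by limma). The N-acetylglucosaminyltransferases B3gnt3, B3gnt2 and B3gnt5 were lower in number 1, with differences of -1.40, -1.02 and -0.97, as was Gcnt3, a branching enzyme of O-glycans, at -1.33. Chst2, which sulfates N-acetylglucosamine of selectin ligands, was higher by 1.47, and B4galt5, a lactosylceramide synthase, by 1.38 and B4galt1, a galactosyltransferase of type 2 chains, by 1.36.

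Among selectins and their ligands 9 of 11 were measured, and 0 of 9 passed with PMA by limma. Cd44, a hyaluronan receptor that can carry selectin ligands, had the largest difference, with a PMA mean of 9.62 and a control mean of 9.39 (0.23, SE 0.12, but 0.099 from numbers 1 and 3 alone and 0.37 from numbers 1 and 2 alone), and Emcn, an endothelial sialomucin, differed by 0.073. In number 1, E-selectin (Sele), a receptor for sialyl Lewis x, was lower, with a difference of -1.13 (SE 0.11), and P-selectin (Selp) was higher by 0.39 (SE 0.077), a call that was lost without PMA array 1 (0.29, adjusted p = 0.0560). Of 8 enzymes that shape the N-glycan core before or beside Fut8, 0 passed with PMA by limma, with Man2a2 at -0.13 and Mgat2 at 0.082. In number 1, 2 of the 8 were higher (background 27.5%) and 0 lower (background 14.1%), while Fut8 was lower. The mannosidase Man2a2 was higher by 0.48 (SE 0.086) and Mgat3, which adds the bisecting N-acetylglucosamine, by 0.44 (SE 0.078). In these 5 lists 0 genes had an unadjusted p under 0.05 for PMA in limma. With the block Cd44 alone did, at an adjusted p of 0.992 by limma, while 42 of all 1246 probe sets did so. The lists' median PMA differences were -0.032 for GDP-fucose supply, 0.0018 for O-fucose acceptors, 0.025 for Lewis chains, 0.044 for selectins and -0.0068 for the N-glycan core, beside 0.0033 over all probe sets. In number 1 their medians were -0.096, 0.17, 0.023, 0.022 and 0.040 in the same order, beside 0.079 over all probe sets. The probe sets of Notch2, Notch4, B3gnt2 and B3gnt3 carry the suffix s, as do those standing for Fut2, Fut4 and Fut10. That of B3galt1 carries the suffix x. For all of these, signal from related transcripts may be included. For the 4 further listed names Sec1, Fut3, Fut5 and Fut6 no probe set could be named.

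**Figure D4:**
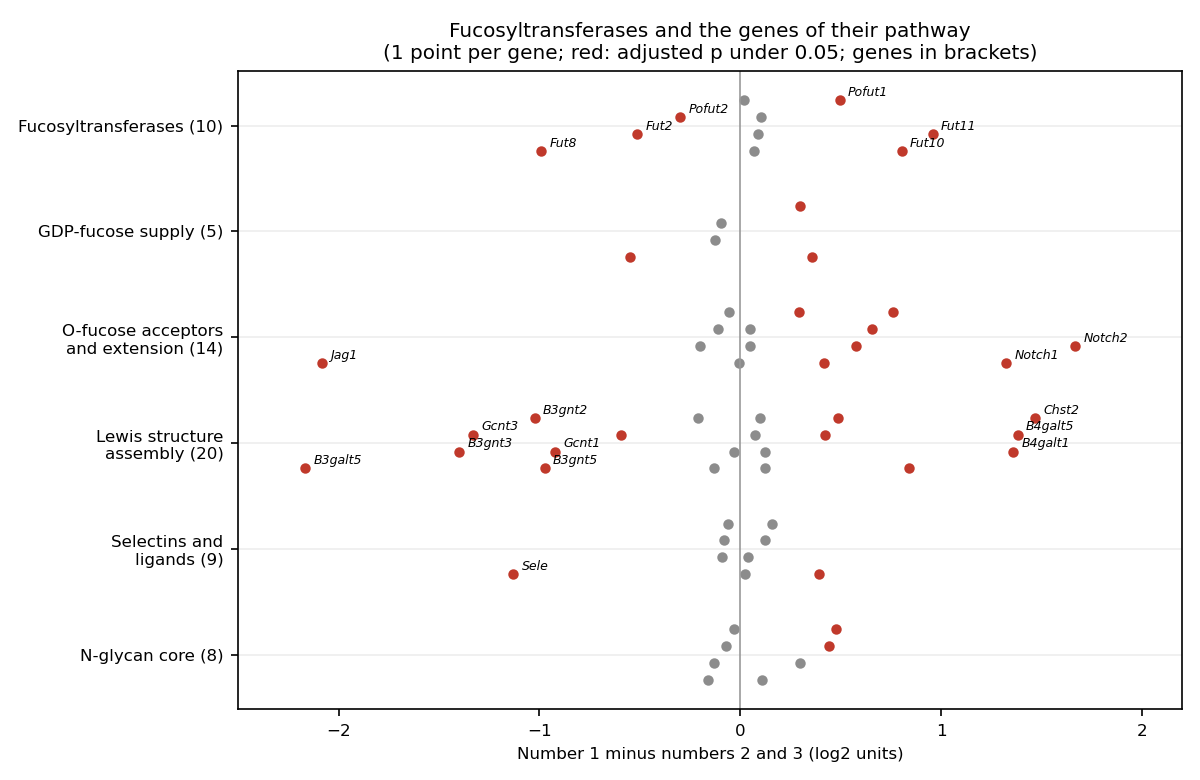
Number 1 minus numbers 2 and 3 (log2 units, horizontal axis), with 1 point per measured gene, for the fucosyltransferases and 5 lists of genes of their pathway. Genes that passed lie on both sides of 0 in every list except the N-glycan core, where both that passed are above 0, and the outermost points are B3galt5 at -2.17 and Notch2 at 1.67.

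The genes whose pattern over the 6 arrays lay nearest to the most variable members were sought among the other 908 named genes, by the root mean square difference of mean-centred values. Fut8 (SD 0.52 over the arrays) was closest to Slc35f5 at 0.057 log2 units, to Ugcg, the glucosylceramide synthase, at 0.062 and to Chodl, a membrane lectin, at 0.064. Fut11 (SD 0.51) was closest to Cd248, the mucin-like receptor endosialin, at 0.056, to the growth factor Fgf18 at 0.067 and to Il11ra2 at 0.082. Fut10 (SD 0.42) was closest to the lysosomal sulfatase Galns at 0.068, to Tpst2, which sulfates tyrosines, at 0.075 and to the helicase Ddx24 at 0.088. These 9 were chosen by closeness over the same 6 arrays, so a similar step between number 1 and the other numbers follows from the choice and is no separate result. That step was -1.03 to -0.95 for the genes near Fut8, 0.93 to 0.97 near Fut11 and 0.67 to 0.68 near Fut10.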

How the data were processed

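Total RNA of 6 samples was made into biotinylated cRNA and hybridised to Affymetrix arrays, per the labels' protocols. The deposited log2 values were made by the authors with RMA, per the submitters' processing notes, which corrects background, normalizes the arrays to one another and summarises probes, so a shift of all transcripts together would not show. In the sources used here the RMA version, array name and genome build are not given. Of 1246 probe sets, 963 were named through the RefSeq accession in their names, without versions, by the gene table of assembly GRCm38.p6.

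Differences were fitted with limma 3.58.1 in R 4.3.3 over all probe sets, with Benjamini-Hochberg adjustment and a threshold of 0.05. PMA was fitted without a block, and number 1 against numbers 2 and 3 with PMA as a term. SE is limma's moderated standard error. The PMA fit, with and without the replicate number as a block, was tested on simulated arrays with known PMA differences. The other comparisons were not simulated. Deviations of arrays with the same number from their group means correlated across probe sets at 0.956, 0.815 and 0.912. These were over the 0.1 taken to mark pairs, so a fit with the replicate number as a block was run too. High values were not limited to the same number, however. PMA array 2 with control array 3 gave 0.838, and PMA array 3 with control array 2 gave 0.886. With number 1 left out the correlation was 0.0412.

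All 10 genes are named. In each pathway list the text names the genes that passed in number 1, up to 8 by size, and the 2 of largest PMA difference; Lfng and Mfng were added after their values were seen. The 3 nearest genes are given for the 3 members of largest SD. Members, lists and the comparison of number 1 were chosen with earlier results of these data known. Precision is limited by the number of arrays.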

Additional observations from a re-analysis of the deposited data

How the results depend on the processing

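With PMA, 0 of the 10 genes passed under every alternative, including the replicate block (0), a term for number 1, limma-trend, 2 rescalings, a filter on dim probe sets that removed Fut9, the mean over probe sets and each array or number left out. The sign of small PMA differences was not stable. Quantile normalizing again gave -0.018 for Fut7 and 0.0031 for Fut10, and the mean over probe sets gave 0.0041 for Fut10. With arrays or numbers left out, the PMA differences ran from -0.14 to 0.11 for Fut1, -0.23 to 0.13 for Fut2, 0.049 to 0.12 for Fut4, -0.051 to 0.093 for Fut7, -0.24 to 0.42 for Fut8, -0.067 to 0.096 for Fut9, -0.30 to 0.24 for Fut10, -0.32 to 0.32 for Fut11, -0.088 to 0.31 for Pofut1 and -0.13 to 0.073 for Pofut2. For pathway genes they ran from -0.64 to 0.30 for B3gnt3, -0.22 to -0.036 for B3galt4, 0.099 to 0.37 for Cd44, -0.21 to -0.013 for Gfus, -0.039 to 0.13 for Emcn, -0.027 to 0.19 for Hes1, -0.30 to 0.019 for Man2a2, -0.057 to 0.23 for Mgat2, -0.028 to 0.25 for Notch4 and -0.093 to 0.0050 for Slc35c1. Leaving out 1 array unbalances the numbers between the groups.

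For number 1, 6 of 10 genes passed under each refit of the model except without control array 1, which left 4, and 3 passed when a difference of at least 0.58 was also asked (Fut8, Fut10 and Fut11; 238 of all probe sets, against 519 without it). The signs of genes that did not pass varied. Fut7 was at -0.021 with arrays shifted to a common median and -0.015 against number 2 alone, and with arrays left out Fut1 ran from -0.14 to 0.27, Fut7 from -0.098 to 0.14 and Fut9 from -0.034 to 0.21. Over all probe sets 343 were higher and 176 lower, and 278 and 232 after quantile normalizing again. The replicate block changed no call of a fucosyltransferase. Signal over background is unknown, so small changes of dim transcripts such as Fut9 may not be seen.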
